A study of Arabidopsis thaliana with 12 samples.

Results

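Both ends of the chlorophyll pathway are covered here by 2 genes of Arabidopsis thaliana. HEMA3 (AT2G31250) codes for a glutamyl-tRNA reductase, the enzyme of the first committed step, and AT1G74470 codes for geranylgeranyl reductase, which acts at the end. They are 2 of the 691 genes that have a probe annotated to them alone on this array. They were chosen by their measured difference between the groups, in opposite directions, so that difference is described below without a test. Each gene has 1 such probe, and 0 further probes list either gene together with others.

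Tetrapyrroles are the ring molecules that include chlorophyll, haem, sirohaem and the light-sensing pigment of phytochrome. In plants they are made in the plastid from glutamate. Glutamyl-tRNA reductase makes the precursor of 5-aminolevulinate and is the main point of control of the pathway. Of its 3 genes in Arabidopsis, HEMA1 is known as the main one in green tissue, and HEMA3 as weakly expressed. Geranylgeranyl reductase turns the geranylgeranyl side chain into phytyl, which anchors chlorophyll in the membrane and also forms the tail of tocopherol and phylloquinone.

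Total RNA came from wild-type plants of the ecotype Wassilevskija, with 6 samples in water and 6 samples that spent 6 h in MS with sucrose at 60 mM, called sucrose medium below. MS, or Murashige and Skoog medium, is a mix of mineral salts for plant culture, so the treated plants differed from the water plants in salts as well as sugar. The labels give no duration for water, no organ, no plant age and no source of the separate samples. P-values therefore measure the spread between these samples only, which may be technical. Each sample has 1 deposited intensity, in arbitrary units, for each of 3439 probes; the small number of arrays limits how precise any value is. The median probe of a sample lay between 0.171 and 0.188 in water and between 0.309 and 0.339 in sucrose medium. In mean intensity, 78.6% of the probes were brighter in sucrose medium, so a level is given both as deposited and relative to its own sample. The part of this overall brightness in the results below was not tested. Fewer cells of a type and less RNA per cell cannot be told apart in such samples. Of the markers listed for green tissue, 2 of 13 had a probe of their own, LHB1B2 for a light-harvesting protein and PSBW for a photosystem II subunit, with mean intensities of 13.0 and 44.3 in water and 10.6 and 49.1 in sucrose medium. On the normalized log2 scale used below, the difference of PSBW was 0.63 (SE 0.09), with every pair higher, and that of LHB1B2 was -0.28 (SE 0.12), while centring each sample on its median put them at -0.53 and -0.96. None of the 20 markers listed for root, seed or pollen had one.

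AT1G74470 was brighter in sucrose medium in every same-numbered pair of samples. Its intensity in water was 1.56 at the lowest, 1.83 at the median and 1.93 at the highest. In sucrose medium these values were 3.18, 3.74 and 4.46. The groups did not overlap, and the mean went from 1.78 ± 0.147 (n = 6, SD) to 3.79 ± 0.538 (n = 6, SD), a ratio of 2.13. An increase in which the groups stayed apart was seen for 29.5% of all probes in deposited intensity, so this separation by itself does not set the gene apart.

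HEMA3 had the same mean intensity in both groups. In water its intensity was 0.432 at the lowest, 0.498 at the median and 0.673 at the highest. In sucrose medium it was 0.367 at the lowest, 0.522 at the median and 0.644 at the highest. The means were 0.524 ± 0.0867 (n = 6, SD) and 0.524 ± 0.103 (n = 6, SD), and the groups overlapped over most of their range. Of the 6 same-numbered pairs, 3 were brighter in sucrose medium and 3 dimmer, with ratios from 0.724 in number 3 to 1.31 in number 1.

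**Figure D1:**
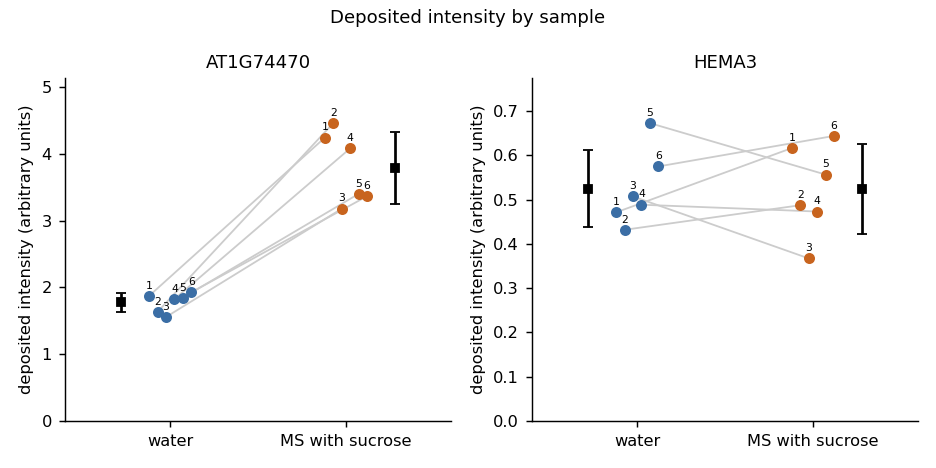
Deposited intensity (arbitrary units, axes from 0) of AT1G74470 and HEMA3 in each sample, with sample numbers beside the points, grey lines between samples of the same number, and black squares for the mean with its SD over 6 samples. All treated samples of AT1G74470 lie above all water samples, while the HEMA3 groups share their mean of 0.524.

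Set against the other probes of the same sample, HEMA3 lay lower in sucrose medium. Its percentile rank among the 3439 probes of its sample ran from 77.3 to 84.5 in water, with a median of 80.9. In sucrose medium it ran from 54.9 to 74.3, with a median of 67.8. The ranks of the groups did not overlap, and every same-numbered pair was lower: number 1, the closest, dropped by 5.84 points, and number 3, the farthest apart, dropped by 26.5 points. Ranks apart with the treated samples lower were found for 12.6% of all probes. The mean rank was 80.7 ± 2.45 (n = 6, SD) in water and 67.2 ± 7.09 (n = 6, SD) in sucrose medium. A flat intensity thus went with a lower place in the sample, in samples whose other probes were mostly brighter.

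Relative to the median probe of its sample, HEMA3 was at 2.96 ± 0.361 times (SD, n = 6) in water and 1.62 ± 0.315 times (SD, n = 6) in sucrose medium. The highest treated sample, at 1.99 times, was below the lowest water sample, at 2.52 times, a separation that 18.8% of all probes showed on this measure.

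AT1G74470 was already among the brighter probes in water. Its percentile rank was 93.3 at the lowest, 94.1 at the median and 94.3 at the highest. In sucrose medium the rank was 96.3 at the lowest, 96.8 at the median and 97.3 at the highest, with no overlap, as for 10.3% of all probes. As a multiple of the sample median it was at 10.1 ± 0.704 (n = 6, SD) in water and 11.8 ± 2.09 (n = 6, SD) in sucrose medium. On that measure the groups overlapped, since the lowest treated sample was at 9.78 and the highest water sample at 10.9. The groups were thus apart in rank but not in distance from the median probe.

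**Figure D2:**
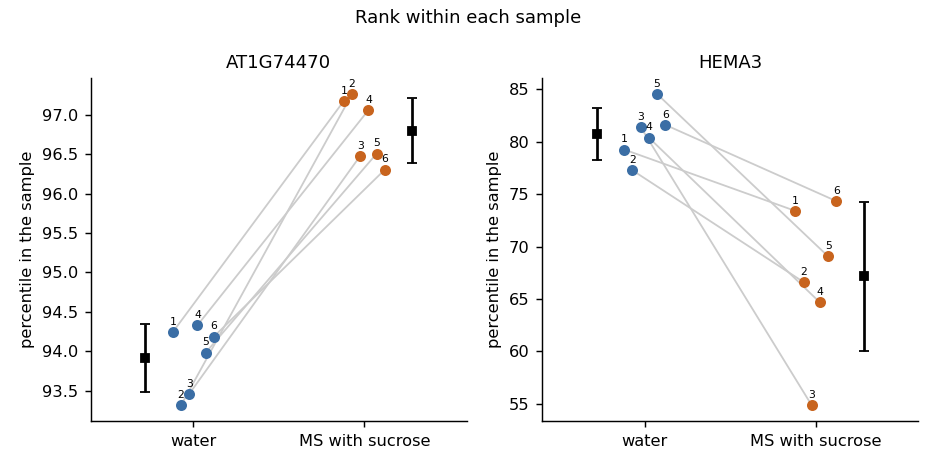
Percentile rank of AT1G74470 and HEMA3 among the 3439 probes of each sample (axes do not start at 0 and differ between the panels), with sample numbers, grey lines between same-numbered samples, and black squares for the mean with its SD over 6 samples. AT1G74470 moves from a mean of 93.9 to 96.8, and HEMA3 from 80.7 to 67.2, with treated sample 3 of HEMA3 lowest at 54.9.

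For the log2 differences, MS with sucrose minus water, an offset of 0.0718 was added to each intensity before taking logs, because 13.6% of all values were exactly 0, and the samples were quantile normalized, which gives all of them the same distribution. Neither gene was listed at 0 or at the array's ceiling in any sample. AT1G74470 had a difference of 0.94 (SE 0.10), or 1.92-fold higher on this scale. The normalized level was 0.98 ± 0.0909 (n = 6, SD) in water and 1.92 ± 0.236 (n = 6, SD) in sucrose medium. It ranked 37th from the largest rise among the 691 genes and 207th among all probes.

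HEMA3 had a difference of -0.63 (SE 0.12), or 1.54-fold lower on the normalized scale. Its normalized level was -0.48 ± 0.153 (n = 6, SD) in water and -1.10 ± 0.258 (n = 6, SD) in sucrose medium. It ranked 85th from the largest fall among the 691 genes and 469th among all probes. On the normalized scale, the groups were apart with the treated samples lower for 12.6% of all probes and apart with the treated samples higher for 10.3%. These shares equal those given above for rank, since quantile normalization keeps the order of the probes within a sample. Separation in rank and on this scale is thus 1 result. Because this contrast chose both genes, nothing is read from their separation.

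The size of both differences followed the scaling, and the 2 genes responded to it differently. AT1G74470 kept a positive difference under the 4 scalings tried. It was 0.98 (SE 0.08) with cyclic loess, 1.06 (SE 0.09) on the deposited scale and 0.39 (SE 0.10) when each sample was centred on its median. HEMA3 was at -0.58 (SE 0.12) with cyclic loess and at -0.68 (SE 0.12) with median centring, but at -0.01 (SE 0.13) on the deposited scale.

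The median of all probes stood at 0.38 on the deposited scale and at -0.29 with median centring, so on both of these scales HEMA3 was 0.39 below that median and AT1G74470 0.67 above it. On the deposited scale 80.0% of all probes had a larger difference than HEMA3, and 15.5% had a larger one than AT1G74470. The plot by scaling shows HEMA3 below the median probe and AT1G74470 above it in each case. Median centring only shifts whole samples, so its distances from the median probe repeat those of the deposited scale by construction. Both genes were chosen for such differences, so these positions are descriptions.

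**Figure D3:**
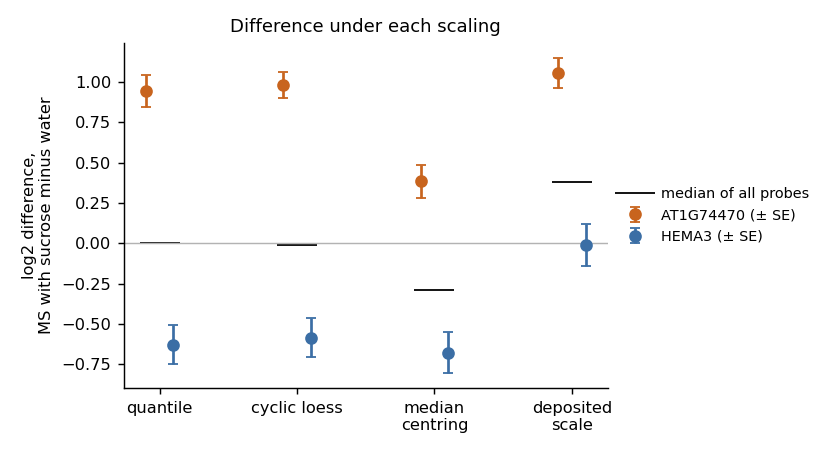
Log2 difference, MS with sucrose minus water, of AT1G74470 and HEMA3 with its SE under 4 scalings of the same 12 samples, beside the median of all probes (black bars). AT1G74470 runs from 0.39 to 1.06 and HEMA3 from -0.68 to -0.01, and the bars show how far each scaling shifts the whole array.

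AT1G74470, of the late step, and HEMA3, of the first step, were set against each other within same-numbered pairs. The measure was the difference of AT1G74470 minus that of HEMA3. HEMA1 and HEMA2 had no probe of their own, so this compares these genes and not whole steps. After quantile normalization this was 1.57 ± 0.337 (SD, n = 6 pairs), from 1.01 in number 6 to 1.94 in number 3. On the deposited scale it was 1.06 ± 0.287 (SD, n = 6 pairs), from 0.64 in number 6 to 1.40 in number 3. Median centring gave the same mean, since a shift of a whole sample cancels between the genes. The value was positive in each of the 6 pairs on both scales. Both genes were chosen for differences in opposite directions, so nothing is read from this sign. In deposited intensity, the ratio of AT1G74470 between the groups was 2.18 ± 0.464 times (SD, n = 6 pairs) that of HEMA3. This compares changes only, since levels of different probes are not comparable.

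**Figure D4:**
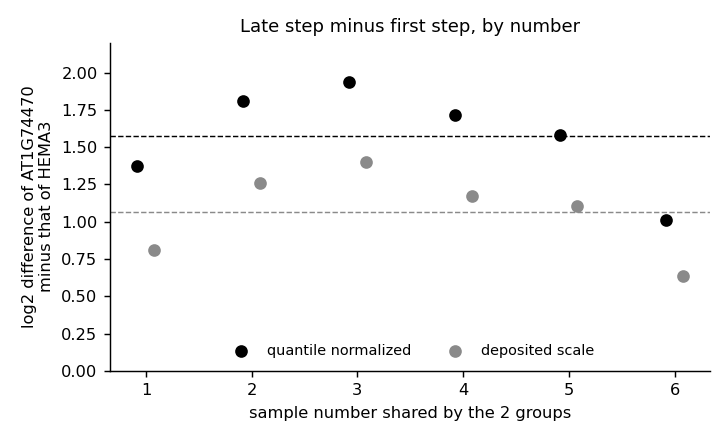
Log2 difference of AT1G74470 minus that of HEMA3 for each sample number shared by the groups, after quantile normalization (black) and on the deposited scale (grey), with dashed lines at the means of 1.57 and 1.06. Every pair lies above 0, for genes chosen for opposite differences, and number 6 is lowest and number 3 highest on both scales.

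Within a group, samples with adjacent numbers lay near each other in some cases only. Treated samples 1 and 2 of AT1G74470 were at 4.24 and 4.46, but treated samples 3 and 4 at 3.18 and 4.08. In sucrose medium, AT1G74470 averaged 4.35 in numbers 1 and 2, 3.63 in numbers 3 and 4, and 3.38 in numbers 5 and 6. In water the same averages were 1.75, 1.69 and 1.89, so the numbers that were high after treatment were not those that were high in water. HEMA3 averaged 0.451, 0.498 and 0.624 in water and 0.552, 0.420 and 0.600 in sucrose medium. For HEMA3 the average of numbers 5 and 6 was the highest in both groups, though treated sample 1, at 0.616, was above treated sample 5, at 0.556. Averaging such neighbours, 3 against 3, cannot move a difference of group means, and it raised the SE to 0.13 for AT1G74470 and 0.15 for HEMA3.

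Both probes had a within-group SD below the median of all probes. The SD left within groups on the normalized log2 scale was 0.18 for AT1G74470 and 0.21 for HEMA3, against a median of 0.28 over all probes. That median takes in dim probes and probes with no signal in any sample, so it is not matched for brightness. For both genes the normalized values spread more widely in sucrose medium than in water, in SD by the values given above. Whether the spreads differ was not tested.

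Of 50 genes listed for tetrapyrrole synthesis and breakdown, 4 had a probe of their own: HEMA3, AT1G74470, CHLM (AT4G25080) and SIRB (AT1G50170). HEMA1, HEMA2 and the genes of 5-aminolevulinate synthesis other than HEMA3 had none, and whether their RNA binds the HEMA3 spot was not tested. After quantile normalization limma called 18.1% of all probes higher and 19.3% lower at an adjusted p under 0.05. By this test 0 of the other 2 tetrapyrrole genes rose and 0 fell, while 1 was lower at an unadjusted p under 0.05. With so few genes measured these counts say little about the pathway as a whole.

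CHLM, for the enzyme that methylates Mg-protoporphyrin IX on the way to chlorophyll, had intensities from 0.154 to 0.301 in water, with a median of 0.201. In sucrose medium they ran from 0.211 to 0.379, with a median of 0.285. The groups overlapped, and the normalized difference was -0.31 (SE 0.13, adjusted p = 0.0797 by limma). On the deposited scale the sign turned, to 0.37 (SE 0.14, adjusted p = 0.0472 by limma), about the 0.38 of the median probe.

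SIRB, for the enzyme that puts iron into sirohaem, the cofactor of nitrite and sulfite reductases, had intensities from 0.132 to 0.209 in water, with a median of 0.190. In sucrose medium they ran from 0.266 to 0.499, with a median of 0.441. In deposited intensity these groups did not overlap, as for 29.5% of all probes. The normalized difference was 0.25 (SE 0.14, adjusted p = 0.194 by limma). On the deposited scale it was 0.94 (SE 0.13, adjusted p = 0.000118 by limma), so both CHLM and SIRB were called higher there, beside 44.2% of all probes called higher and 6.89% lower. With median centring 0 of the 2 was called, beside 14.2% of all probes higher and 37% lower. Without treated sample 3, SIRB passed after quantile normalization at 0.35 (adjusted p = 0.0299 by limma), and CHLM passed at -0.37 without treated sample 2 (adjusted p = 0.0286 by limma) and at -0.36 when water sample 2 was dropped (limma, adjusted p = 0.0466).

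The steps between HEMA3 and the branch to chlorophyll were seen only through 2 spots. Each lists several genes of 1 step, so no gene is named for them. These spots were picked out after the values were seen, so the p-values given for them are descriptions. The spot for 5-aminolevulinate dehydratase, which joins precursor molecules into the first ring, went from a mean intensity of 0.162 ± 0.0173 (n = 6, SD) to 0.219 ± 0.0603 (n = 6, SD). Its normalized difference was -0.34 (SE 0.14, adjusted p = 0.089 by limma). It passed without treated sample 2, at -0.41 (adjusted p = 0.0359 by limma). The spot for uroporphyrinogen decarboxylase, which trims the side chains of the ring, went from 0.301 ± 0.0606 (n = 6, SD) to 0.330 ± 0.0608 (n = 6, SD). It was called lower, at -0.56 (SE 0.13, adjusted p = 0.00435 by limma), but was at 0.11 on the deposited scale (adjusted p = 0.501 by limma). This call was lost with neighbouring numbers averaged (limma, adjusted p = 0.0727, and 0.162 with a replicate block), and when numbers 3 and 4 (limma, adjusted p = 0.0995) or 5 and 6 (limma, adjusted p = 0.073) were dropped.

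Of 35 genes listed for plastid isoprenoids, tocopherol, phylloquinone and carotenoids, 2 had a probe of their own. By limma 0 rose and 1 fell, against the 18.1% and 19.3% of all probes. The one that fell was AT1G78620, for a kinase of phytyl phosphate that feeds tocopherol synthesis with the phytyl group that geranylgeranyl reductase makes. Its intensity ran from 0.728 to 1.21 in water, with a median of 1.02, and from 0.744 to 1.06 in sucrose medium, with a median of 0.979. The intensities overlapped almost fully. The normalized difference was -0.49 (SE 0.11, adjusted p = 0.00491 by limma), lower in 5 of 6 pairs. On the deposited scale it was at -0.07 (adjusted p = 0.662 by limma), and with neighbouring numbers averaged the adjusted p was 0.0736 by limma, and 0.129 with the neighbours also paired as a replicate block. The call was also lost when numbers 1 and 2 were dropped from both groups (limma, adjusted p = 0.0623) or when numbers 3 and 4 were (limma, adjusted p = 0.0879).

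Z-ISO (AT1G10830), for the isomerase of zeta-carotene in carotenoid synthesis, had a mean intensity of 0.161 ± 0.0686 (n = 6, SD) in water and 0.236 ± 0.0562 (n = 6, SD) in sucrose medium. Its normalized difference was -0.16 (SE 0.21, adjusted p = 0.568 by limma). Water samples 1 and 2 were the dimmest, at 0.0799 and 0.0775, near the offset. When numbers 1 and 2 were dropped from both groups Z-ISO passed, at -0.37 (limma, adjusted p = 0.035). Over the 4 named genes of both lists the median difference was -0.24 after quantile normalization, where that of all probes was 0.00, and 0.40 on the deposited scale, where that of all probes was 0.38.

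**Figure D5:**
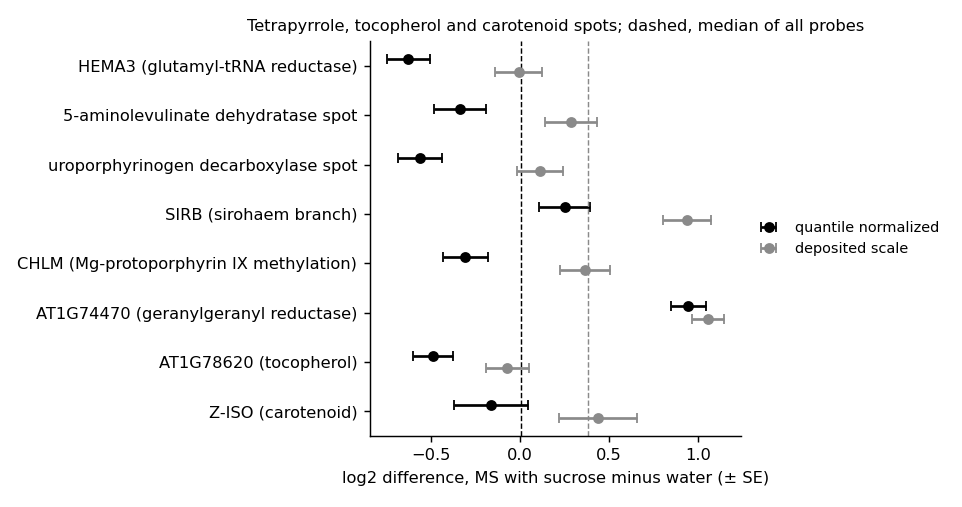
Log2 difference, MS with sucrose minus water, with its SE, after quantile normalization (black) and on the deposited scale (grey). Dashed lines mark the median of all probes on each scale. The tetrapyrrole spots run from the first step to geranylgeranyl reductase, with SIRB of the sirohaem side branch placed among them. The tocopherol and carotenoid genes follow. AT1G74470 lies to the right of both lines at 0.94 and 1.06, and HEMA3 to the left of both at -0.63 and -0.01.

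The genes most like each of the pair were sought among 525 other genes with a probe of their own that was above 0 in all samples, by Pearson's r over the 12 samples on the normalized scale. These r values share arrays and normalization and are descriptions. Over the values themselves, which hold the group difference, AT1G74470 was closest to AT4G16410 (r = 0.993), AT3G59300 (r = 0.971) and AT1G13990 (r = 0.966). Over deviations from the group means it was again closest to AT4G16410 (r = 0.946), followed by AT2G29870 (r = 0.873) and AT2G35450 (r = 0.851). AT4G16410 had a mean intensity of 0.407 in water and 1.09 in sucrose medium, with a normalized difference of 0.77.

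HEMA3 was closest over the values to APTX (r = 0.926), chr31 (r = 0.919) and AT5G38310 (r = 0.918), all with lower levels in sucrose medium, at -2.27, -2.15 and -1.01. Over deviations from the group means it was closest to AT2G46630 (r = 0.854), AT2G48090 (r = 0.802) and AT1G65370 (r = 0.756), whose differences were positive at 0.62, 0.27 and 0.29. The 3 genes nearest to HEMA3 by one measure were not among the 3 nearest by the other. Between HEMA3 and AT1G74470 themselves r was -0.79 over the values and 0.09 over the deviations.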

How the data were processed

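The authors deposited a linear intensity for each probe in each sample. Background correction, scaling and the type of array are not given in the sources at hand. The lists and members were chosen with earlier results of these data known. Probe names come from the platform annotation, updated to the symbols of TAIR10.1. Among probes, 692 list 1 gene (690 matched), 870 several and 1877 are unnamed here.

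Values were used as log2(intensity + 0.0718), the offset being the 10th percentile of values above 0, quantile normalized, and tested with limma 3.58.1 in R 4.3.3 (mean-variance trend, 6 against 6, two-sided, Benjamini-Hochberg over 3439 probes, threshold 0.05). The fit was tested on simulated normalized values with independent noise and changes of known size. These held no brightness gap between groups and no pairing, so they cannot bear on the scaling or the block. Named were both members, every listed pathway gene with its own probe, and the 3 nearest genes by each measure. Same-numbered samples correlated across probes at 0.174 to 0.390 in their deviations from group means in the 6 pairs. By this measure 11 of 12 samples were closest to the sample of their own number in the other group. The numbers thus appear to pair the samples, which comes from the data and not from the labels. The main fit does not use this pairing, while the block among the alternatives does. Alternatives were other scalings, offsets, filters, variance models, averaged neighbours, a block and left-out samples. Figures were drawn with matplotlib 3.10.9.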

Additional observations from a re-analysis of the deposited data

Results flagged for a closer look

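Of 20 groups of 6 samples examined gene by gene, 1 held a sample set well apart from the other 5, and chance alone gives about 1 in 20. This was the green-tissue marker PSBW, whose intensity was lowest in water sample 1, at 38.1, with a gap to the next sample of 0.687 of the group's range.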

How the results depend on the processing

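Of 27 alternatives, 5 cannot move a difference of group means. Of the other 22, 21 left the AT1G74470 difference within the spread between samples and 1, median centring, moved it, to 0.39. For HEMA3 21 did so and 1, the deposited scale, moved it, to -0.0075 (SE 0.13), where 3 of 6 pairs were higher and its sign is undetermined. AT1G74470 minus HEMA3 was 1.06 on the deposited scale and with median centring. Leaving out each sample gave 0.902 to 1.005 for AT1G74470 and -0.69 to -0.55 for HEMA3. The deposited scale called 1519 probes higher and 237 lower, against 624 and 665, and median centring 1271 lower. Averaged neighbours called 349 higher and 402 lower, and 262 and 294 with a replicate block. The number as a replicate block called 638 and 678 and changed no call of a listed gene. With that block the adjusted p by limma was 0.0348 for the decarboxylase spot, 0.0211 for AT1G78620 and 0.155 for CHLM, each higher than without it. For SIRB and the dehydratase spot it was also higher, at 0.274 and 0.13, and for Z-ISO it was lower, at 0.405. Of the other tetrapyrrole genes, 2 rose on the deposited scale and 1 without numbers 3 and 4, and 1 fell without numbers 1 and 2; leaving out single samples gave 0 to 1 risers and 0 to 1 fallers. The count of 1 isoprenoid gene that fell became 0 on the deposited scale, with averaged neighbours with or without a block, and without numbers 3 and 4. On the deposited scale CHLM turned to 0.37, Z-ISO to 0.44, and the dehydratase and decarboxylase spots to 0.29 and 0.11. The cause was not tested. Another probe for either gene could not be tried, since each has 1. With 4 of 50 tetrapyrrole genes and 2 of 35 isoprenoid genes measured, the lists describe little of either pathway. CHLM, SIRB, Z-ISO and the dehydratase spot were dim, with water means of 0.212, 0.181, 0.161 and 0.162 against an offset of 0.0718.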
